A study of Mus musculus with 20 samples.

Results

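The comparison set E46 cells given serotonin labelled 1 µg/ml against untreated E46 cells, with 4 arrays in each group and a 24 h exposure. These 8 arrays were chosen by their titles from the 20 arrays of the series. mHypoE-46 (E46) is an immortalised mouse hypothalamic neuronal line, described in the labels as sensitive to serotonin. Cells were grown to near confluence in DMEM with serum. The medium of every E46 group was then changed to serum-free DMEM with penicillin and streptomycin, and serotonin was added 4 h later. No label states that the replicates are separate cultures. The p-values then describe a spread among arrays, which may be technical. That spread was estimated over all 20 arrays of the series, which include a second hypothalamic line, and not over these 8 alone. A second group of 4 E46 arrays, labelled 100 µg/ml, is used below to set the size of the differences. For both serotonin groups another label gives the doses crossed: 100 µg/ml for the arrays titled 1, and 1 µg/ml for those titled 100. The groups are therefore called labelled 1 and labelled 100, after the titles.

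Serotonin is made from tryptophan and signals through G protein-coupled receptors and the ion channel of the Htr3 subunits. In the hypothalamus it is known for lowering food intake, by way of neurons that make melanocortin peptides and of neurons that make Npy and Agrp. The study's design text names Npy mRNA and secretion as its subject. E46 carried only part of a neuronal programme on these arrays. Of 16 neuron markers measured, 10 lay above the background level in controls and 9 at labelled 1, while Rbfox3, the NeuN antigen, at 4.12 to 4.24, and the synaptic protein gene Snap25, at 4.04 to 4.28, were at background in the controls. A gene counted as above background where its mean exceeded the 95th percentile of the levels of 1157 genes for odorant or pheromone receptors, which is 4.38 in controls and 4.66 at labelled 1. All levels are log2 values, and every change is the labelled 1 mean minus the control mean on that scale, ± SE, with 4 arrays a group.

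Expression at labelled 1 was close to that of the controls. Of 18820 genes tested with limma, 2 were called at an adjusted p below 0.05, or 0.0106%: the small nucleolar RNA Snord22 rose and the Hedgehog co-receptor gene Boc fell. The labelled 100 arrays, tested in the same way against the same controls, gave 7451 called genes (39.6%), and tested directly against labelled 1 they gave 7796 (41.4%), 4450 higher (23.6%) and 3346 lower (17.8%) at labelled 100. At an unadjusted p below 0.05 there were 2993 genes (15.9%), of which 1022 (5.43%) were higher and 1971 (10.5%) lower at labelled 1. That split depended on the scaling. It was 1403 higher and 1733 lower after a further quantile normalization, and 2060 higher and 455 lower after centring each array on its median, which moved the median change of all genes from -0.04 to 0.07. Among the 12876 genes above background the split without such rescaling was 318 higher and 1717 lower. In a fit with dim genes left out the median change was -0.06. All 4 labelled 1 arrays lay above all 4 controls for 308 genes (1.64%), and below them for 895 (4.76%).

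The arrays of both groups differed in quality. The upper quartile of all genes was 8.09 in control replicate 1 and between 8.24 and 8.26 in the other controls. At labelled 1 it was 8.10 and 8.11 in replicates 1 and 3, and 8.26 and 8.23 in replicates 2 and 4. All labelled 100 arrays lay between 8.23 and 8.31. The receptor genes, which a hypothalamic line is not known to express, averaged 3.37 to 3.51 in the controls, 4.05 and 3.85 in labelled 1 replicates 1 and 3, and 3.42 and 3.45 in replicates 2 and 4. Of these 1157 genes, 362 were higher and 11 lower at an unadjusted p below 0.05, with a median change of 0.23. Without the arrays whose upper quartile was below 8.2, called the low-quartile arrays here, namely control replicate 1, labelled 1 replicates 1 and 3 and 1 array of the other cell line, their median change was 0.03. In that fit of 2 arrays against 3, the genes at an unadjusted p below 0.05 numbered 247 higher and 519 lower, or 766 in all. The groups share no row letter of the scan names: controls lie in rows A and B and labelled 1 in C and D. The labelled 100 arrays lie in rows B and C and link them, and with the row letter as a covariate 0 genes were called and 3416 had an unadjusted p below 0.05.

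**Figure D1:**
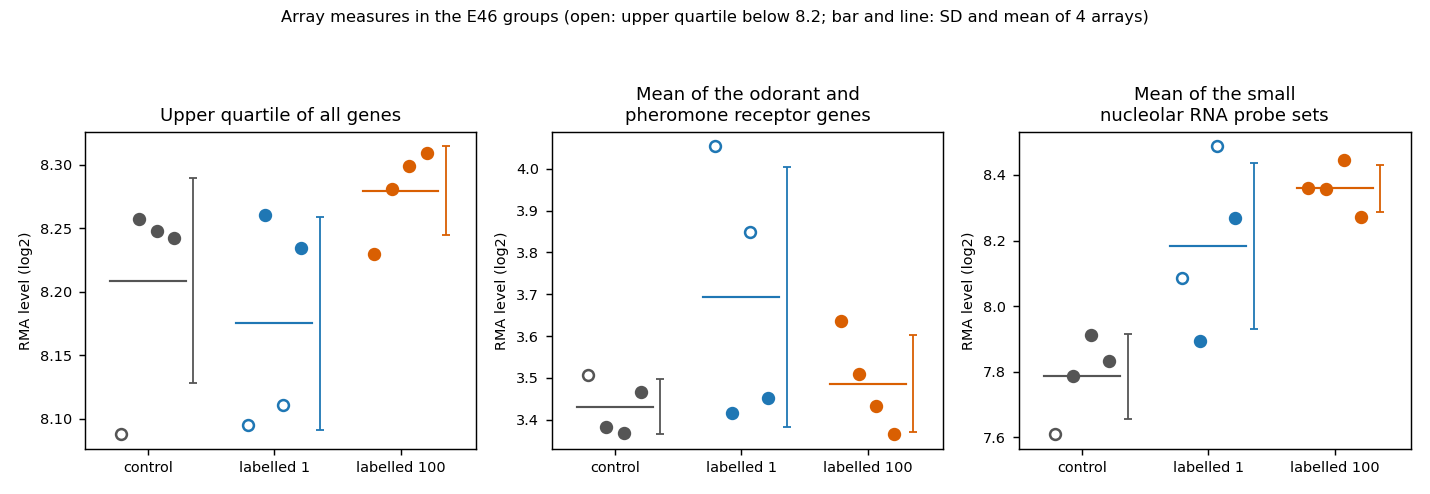
Each point is 1 array of E46 controls, labelled 1 or labelled 100, with the upper quartile of all genes, the mean of the odorant and pheromone receptor genes and the mean of the small nucleolar RNAs (log2) on the vertical axes; lines and bars are the mean and SD of 4 arrays. Open points are the arrays with an upper quartile below 8.2: 1 control and 2 labelled 1 arrays, and both of these labelled 1 arrays have the highest receptor gene means.

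Snord22 is a box C/D small nucleolar RNA, a class that guides chemical modification and processing of ribosomal RNA. It is encoded within the host gene Snhg1, which was not among the genes tested. Its level was 7.09, 7.24, 7.41 and 7.25 in the controls and 7.72, 7.68, 7.98 and 7.79 at labelled 1. Every labelled 1 array lay above every control, with control replicate 1 the lowest of the 8 and labelled 1 replicate 3 the highest. Snord22 rose by 0.55 ± 0.07 (limma, adjusted p = 0.0068), or 1.46-fold. At labelled 100 it was 8.17, 8.26, 8.22 and 8.13, higher than at labelled 1 by 0.40 in the direct test (adjusted p = 0.000137). The call was kept in 17 of 22 alternative settings. It was lost when the 12 E46 arrays (adjusted p = 0.278) or the 8 arrays (0.436) were fitted alone, with the row letter as a covariate (0.187), against a 1.5-fold threshold (1.0) and without the low-quartile arrays (adjusted p = 0.278). The change was 0.55, 0.55, 0.52, 0.55 and 0.44 in these 5 settings, in the order given.

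Boc encodes a membrane protein that binds Hedgehog ligands together with Ptch1. Its level was 5.63, 5.53, 5.50 and 5.77 in the controls and 5.10, 5.10, 4.99 and 5.19 at labelled 1. The groups did not overlap. Boc fell by 0.51 ± 0.08 (adjusted p = 0.0476), to 0.702 times its control level, and at labelled 100 it averaged 5.05, which differed from labelled 1 by -0.05 (adjusted p = 0.697). The call stood close to the threshold and was kept in 4 of 22 alternative settings, and over all 22 its change ran from -0.76 to -0.41; without the low-quartile arrays the change was -0.45 (adjusted p = 0.87). It was lost without any 1 of the 4 controls and without labelled 1 replicate 1 or 3, with adjusted p from 0.0637 to 0.347.

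**Figure D2:**
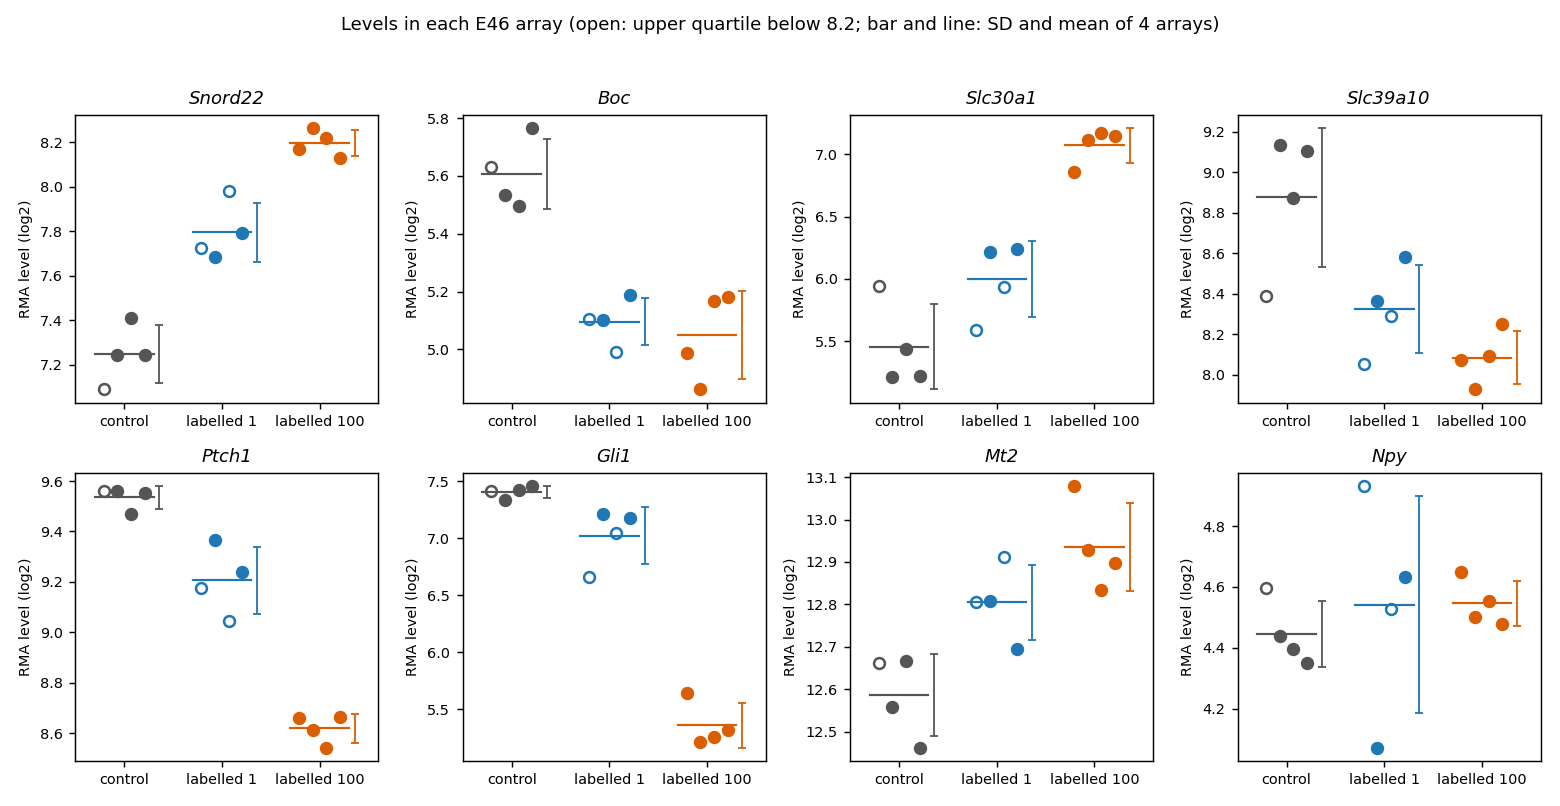
Levels (log2) of Snord22, Boc, Slc30a1, Slc39a10, Ptch1, Gli1, Mt2 and Npy in each E46 array, by group; lines and bars are the mean and SD of 4 arrays, and open points are arrays with an upper quartile below 8.2. For Snord22, Boc, Ptch1, Gli1 and Mt2 the control and labelled 1 points do not overlap, and for Slc30a1, Slc39a10 and Npy they do.

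Other small nucleolar RNAs were higher too, without passing the adjusted threshold. Of 30 box C/D RNAs, Snord22 was the only one called; 15 were higher and 1 lower at an unadjusted p below 0.05 (against 5.43% and 10.5% of all genes), and the median change was 0.32. Of 26 box H/ACA RNAs, the class that guides conversion of uridine to pseudouridine, none was called, 15 were higher and 0 lower at that threshold, and the median change was 0.46. The median of all genes was -0.04. Snora34, a box H/ACA RNA, was 8.16, 7.96, 8.21 and 8.11 in the controls and 9.0, 8.46, 9.90 and 9.14 at labelled 1, a difference of 1.01 ± 0.21 (adjusted p = 0.18). Snora20 differed by 0.61 ± 0.13, Snord49a by 0.66 ± 0.16 and Snord118, the U8 RNA of 28S ribosomal RNA maturation, by 0.86 ± 0.20 (adjusted p = 0.18 each). In these 4 RNAs labelled 1 replicate 3 was the highest, and all labelled 1 arrays exceeded all controls. Such separation held for 6 of the 30 box C/D RNAs, 5 of the 26 box H/ACA RNAs and 1.64% of all genes. The 4 were named for their small p in these same arrays, so their separation is a description.

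Array quality moved with part of these differences, and its part in them was not tested further than by the following values. The mean over the small nucleolar RNAs was 7.61, 7.79, 7.91 and 7.83 in the controls and 8.09, 7.89, 8.49 and 8.27 at labelled 1. Labelled 1 replicate 2 lay within the range of the controls and replicate 3 was the highest. Labelled 1 replicate 4, with a receptor gene mean of 3.45, lay above all controls. Without the low-quartile arrays the medians were 0.17 for box C/D and 0.27 for box H/ACA RNAs, with 4 and 6 RNAs higher and 0 lower at an unadjusted p below 0.05 (1.31% and 2.76% of all genes in that fit). Of 13 host genes that carry such RNAs in their introns, none was called in the fit of all arrays. At an unadjusted p below 0.05 in that fit, 2 were higher (15.4%, against 5.43% of all genes) and 0 lower (against 10.5%). Without the low-quartile arrays 0 were higher and 0 lower. Gas5 was 9.31, 9.76, 9.78 and 9.65 in the controls and 10.24, 9.67, 10.47 and 10.07 at labelled 1 (0.49 ± 0.13, adjusted p = 0.18), and Snhg15 differed by 0.75 ± 0.24 (adjusted p = 0.207). Without the low-quartile arrays Gas5 differed by 0.14 and Snhg15 by 0.20. The protein side of ribosome assembly was level: 36 nucleolar biogenesis genes had a median change of 0.00, and 48 cytosolic ribosomal protein genes 0.03, whereas at labelled 100 the same 36 genes had a median of 0.99 with 33 higher and 0 lower at an adjusted p below 0.05 (20.3% and 19.3% of all genes).

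The Hedgehog pathway passes a secreted ligand through Ptch1 and Smo to the Gli transcription factors, and Ptch1 and Gli1 are themselves target genes of the pathway. Of 22 pathway genes measured, 1 (Boc) was called lower and 0 higher. At an unadjusted p below 0.05, 7 were lower (31.8%, against 10.5% of all genes) and 1 higher (4.55%, against 5.43%), and for 6 all labelled 1 arrays lay below all controls, as for 4.76% of all genes. The median change was -0.16, which was -0.08 without the low-quartile arrays, -0.11 after quantile normalization and -0.06 after median centring. Lists outside the pathway reached the same median: -0.16 for 13 intestinal epithelium markers and for 12 macrophage and microglia markers. Without the low-quartile arrays these were -0.19 and -0.11. At an unadjusted p below 0.05, 23.1% and 8.33% of their genes were lower. In each of these lists 4 genes were above background, against 19 of the 22 Hedgehog genes. Ptch1, the receptor that holds Smo inactive, was 9.56, 9.56, 9.47 and 9.55 in the controls and 9.18, 9.36, 9.05 and 9.24 at labelled 1 (-0.33 ± 0.08, adjusted p = 0.18). Gli1 was 7.41, 7.33, 7.42 and 7.46 in the controls and 6.66, 7.21, 7.04 and 7.18 at labelled 1 (-0.38 ± 0.12, adjusted p = 0.207). For both genes the groups did not overlap and labelled 1 replicate 2 was the array nearest to the controls. Without the low-quartile arrays Ptch1 differed by -0.22 and Gli1 by -0.21 (adjusted p = 0.996 each). Gli3, a Gli factor that also acts as a repressor, differed by -0.20 ± 0.08 (adjusted p = 0.24). At labelled 100, measured against the same controls, Ptch1 fell by 0.92 (adjusted p = 5.98e-09), Gli1 fell by 2.05 (adjusted p = 4.14e-11) and Boc by 0.56 (adjusted p = 1.1e-05).

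Zinc handling genes were described because the labelled 1 means of Slc30a1, Slc39a10, Mt1 and Mt2 lay between those of the controls and of labelled 100. These genes were picked after their values were seen. The full list of 27 metallothionein and zinc transporter genes was not intermediate. Its mean was 7.70 in the controls and 7.69 at labelled 1, and its median change was -0.03 at labelled 1 and 0.15 at labelled 100. Metallothioneins bind zinc and other metals in the cytosol, Slc30a1 (ZnT1) exports zinc across the plasma membrane, and Slc39a10 (ZIP10) imports it. Metal-responsive transcription factor 1 activates metallothionein genes and Slc30a1 through metal response elements, whose core is TGCNCNC. The RefSeq promoter windows, 300 bases from 250 before to 50 after the start site in GRCm38.p6, are shown because they let a reader find that core; capitals mark each match on either strand. The windows are chr8:94178839-94179138 for Mt1, chr8:94172368-94172667 for Mt2, chr1:191906531-191906830 for Slc30a1, all on the plus strand, and chr1:46925727-46926026 on the minus strand for the most upstream of 2 listed starts of Slc39a10.
Mt1: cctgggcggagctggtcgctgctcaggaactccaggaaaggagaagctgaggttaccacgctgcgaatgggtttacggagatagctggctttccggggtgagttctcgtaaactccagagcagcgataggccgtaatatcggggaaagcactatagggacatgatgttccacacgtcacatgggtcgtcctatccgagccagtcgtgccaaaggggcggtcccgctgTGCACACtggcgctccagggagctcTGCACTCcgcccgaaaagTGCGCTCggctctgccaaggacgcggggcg
Mt2: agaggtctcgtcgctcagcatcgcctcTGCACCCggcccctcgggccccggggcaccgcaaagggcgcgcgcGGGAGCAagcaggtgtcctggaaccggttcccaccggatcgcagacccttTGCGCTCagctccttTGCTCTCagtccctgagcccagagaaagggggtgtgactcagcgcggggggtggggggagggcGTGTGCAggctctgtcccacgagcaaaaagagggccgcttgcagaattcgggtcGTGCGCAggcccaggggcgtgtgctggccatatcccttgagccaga
Slc30a1: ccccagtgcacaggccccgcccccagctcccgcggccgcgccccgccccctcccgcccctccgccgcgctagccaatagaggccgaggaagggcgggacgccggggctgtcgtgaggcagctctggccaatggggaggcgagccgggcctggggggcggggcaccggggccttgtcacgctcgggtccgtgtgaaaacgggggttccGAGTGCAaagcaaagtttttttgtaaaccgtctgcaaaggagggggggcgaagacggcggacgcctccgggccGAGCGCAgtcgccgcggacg
Slc39a10: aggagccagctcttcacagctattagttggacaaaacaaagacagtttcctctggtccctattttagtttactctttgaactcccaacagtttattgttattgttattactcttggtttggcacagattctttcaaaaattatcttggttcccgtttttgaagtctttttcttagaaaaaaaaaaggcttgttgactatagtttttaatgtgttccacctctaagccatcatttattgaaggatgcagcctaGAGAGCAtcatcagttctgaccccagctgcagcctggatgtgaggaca
The core occurred 3 times in the Mt1 window, 6 times in the Mt2 window, 2 times in the Slc30a1 window and 1 time in the Slc39a10 window. Of all 32851 promoter windows of that length, 51% held at least 1 match, 20.2% at least 2, 7.1% at least 3 and 0.225% at least 6. A match is a description of the letters and was not tested as a binding site.

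Slc30a1 was 5.95, 5.21, 5.44 and 5.22 in the controls and 5.59, 6.22, 5.94 and 6.24 at labelled 1. The groups overlapped through control replicate 1 and labelled 1 replicates 1 and 3, the same 3 arrays that had a low upper quartile. The change was 0.54 ± 0.15 over all arrays (limma, adjusted p = 0.18) and 0.94 ± 0.11 without those arrays, with 2 labelled 1 arrays against 3 controls, where Slc30a1 was the single gene called of 18820 (0.00531%; adjusted p = 0.00311). It was also called with array weights (0.79, adjusted p = 0.0161), and in none of the other 20 alternatives. At labelled 100 it was 6.86, 7.11, 7.17 and 7.14, above labelled 1 by 1.07 (adjusted p = 3.41e-06).

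The remaining zinc genes gave smaller values. Slc39a10 was 8.39, 9.13, 8.87 and 9.11 in the controls and 8.06, 8.37, 8.29 and 8.58 at labelled 1, with control replicate 1 inside the labelled 1 range (-0.55 ± 0.14, adjusted p = 0.18; -0.56 without the low-quartile arrays). At labelled 100 it averaged 8.09, which differed from labelled 1 by -0.24 (adjusted p = 0.211). Mt2 was 12.66, 12.56, 12.67 and 12.46 in the controls and 12.81, 12.81, 12.91 and 12.69 at labelled 1, without overlap (0.22 ± 0.07, adjusted p = 0.207). Mt1 differed by 0.17 ± 0.07 (adjusted p = 0.272), and both lay in the brightest part of the range, at 11.70 or above in every array. Of all 27 metallothionein and zinc transporter genes 0 were called, and 3 were higher (11.1%, against 5.43% of all genes) and 1 lower (3.70%, against 10.5%) at an unadjusted p below 0.05, with a median change of -0.03. The 4 of metal binding and export (Mt1, Mt2, Mt3 and Slc30a1) had a median change of 0.19, and 0.15 without the low-quartile arrays.

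Npy, the appetite-stimulating peptide gene that the study set out to follow, was not called. It was 4.60, 4.44, 4.40 and 4.35 in the controls and 4.93, 4.07, 4.53 and 4.63 at labelled 1. The labelled 1 arrays took both the highest and the lowest value, so the groups overlapped, and all 8 arrays stayed near the background level. The change was 0.10 ± 0.12 (adjusted p = 0.705), and its 95% interval ran from -0.15 to 0.34. The sign rested on single arrays: the change was 0.25 without labelled 1 replicate 2 (adjusted p = 0.109) and -0.03 without replicate 1 (adjusted p = 0.943). Among Npy receptors only Npy1r was above background, at 7.24, 7.60, 7.60 and 7.61 in the controls and 7.24, 7.59, 7.15 and 7.37 at labelled 1 (-0.18 ± 0.10, adjusted p = 0.401); at labelled 100 it fell by 1.58 (adjusted p = 1.43e-10). Of 36 appetite and hypothalamic peptide genes, 0 were called, with a median change of -0.02. Penk, which encodes enkephalins, was 8.93, 8.96, 8.98 and 8.77 in the controls and 8.75, 8.78, 8.48 and 8.61 at labelled 1 (-0.25 ± 0.28, adjusted p = 0.66), and averaged 5.38 at labelled 100. Here too the error holds the spread of the labelled 100 arrays (SD 0.853, against 0.0967 in the controls and 0.140 at labelled 1), and the adjusted p was 0.436 with the 8 arrays fitted alone.

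The serotonin receptors themselves were dim. Of 14 receptor genes, 6 (Htr1b, Htr1d, Htr2a, Htr4, Htr5b and Htr6) were above background in the controls and 1 at labelled 1, where the background level was higher. None was called, the median change was -0.02, and all 14 intervals lay within 1.5-fold. Htr2a, a Gq-coupled receptor, was 5.16, 5.16, 5.16 and 4.97 in the controls and 4.69, 4.88, 4.95 and 5.21 at labelled 1 (-0.18 ± 0.11, adjusted p = 0.416). Htr6 and Htr5b differed by -0.26 ± 0.10 each (adjusted p = 0.247 and 0.246), with levels from 4.25 to 4.99. Of 23 genes that make, carry or degrade serotonin 0 were called, and the serotonin transporter gene Slc6a4 stayed at or below 3.93 in all 8 arrays. Genes that respond to receptor signalling gave no called member. The median change was -0.08 for 31 genes of cAMP and calcium signalling and -0.10 for 28 immediate early and CREB target genes. It was -0.12 for 22 MAP kinase feedback genes, against -0.04 for all genes and -0.06 with dim genes left out. Without the low-quartile arrays the medians of the 3 lists were -0.03, -0.05 and -0.03, and after median centring they were 0.03, 0.00 and -0.01. Fos was 5.74, 5.99, 6.06 and 5.89 in the controls and 5.39, 5.62, 5.62 and 5.68 at labelled 1 (-0.34 ± 0.11, adjusted p = 0.207), without overlap; the 24 h time point comes long after the usual peak of this gene.

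Nutrient sensing and clock genes leaned lower without calls. Of 31 insulin, leptin and energy sensing genes 0 were called; 9 were lower (29.0%, against 10.5% of all genes) and 0 higher (against 5.43%) at an unadjusted p below 0.05, with a median of -0.12 (-0.04 for all genes), which was -0.03 without the low-quartile arrays and -0.01 after median centring. Tsc2, which restrains mTOR, was 9.83, 9.95, 9.81 and 9.94 in the controls and 9.57, 9.73, 9.52 and 9.68 at labelled 1 (-0.26 ± 0.06, adjusted p = 0.18). Mtor differed by -0.24 ± 0.07 and Foxo1, a transcription factor held in check by insulin, by -0.30 ± 0.10 (adjusted p = 0.206 and 0.207). In all 3 genes labelled 1 replicate 2 was nearest to the controls. Of 20 clock genes 0 were called, 6 were lower (30.0%) and 0 higher at that threshold, and the median of -0.12 was -0.05 without the low-quartile arrays and -0.01 after median centring. Of the 31 and 20 genes of these lists, 29 and 20 were above background. Lower values were commoner there, at 318 higher and 1717 lower of 12876 genes, and the median change was -0.06 with dim genes left out. Per1, a negative limb gene of the clock, was 7.61, 7.55, 7.38 and 7.65 in the controls and 7.15, 7.29, 7.19 and 7.10 at labelled 1 (-0.36 ± 0.11, adjusted p = 0.191). Cry2 differed by -0.32 ± 0.13 (adjusted p = 0.246), but from 2 arrays: labelled 1 replicates 1 and 3 were at 6.75 and 6.63, while replicates 2 and 4 were at 7.30 and 7.33, in the control range of 7.26 to 7.38.

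**Figure D3:**
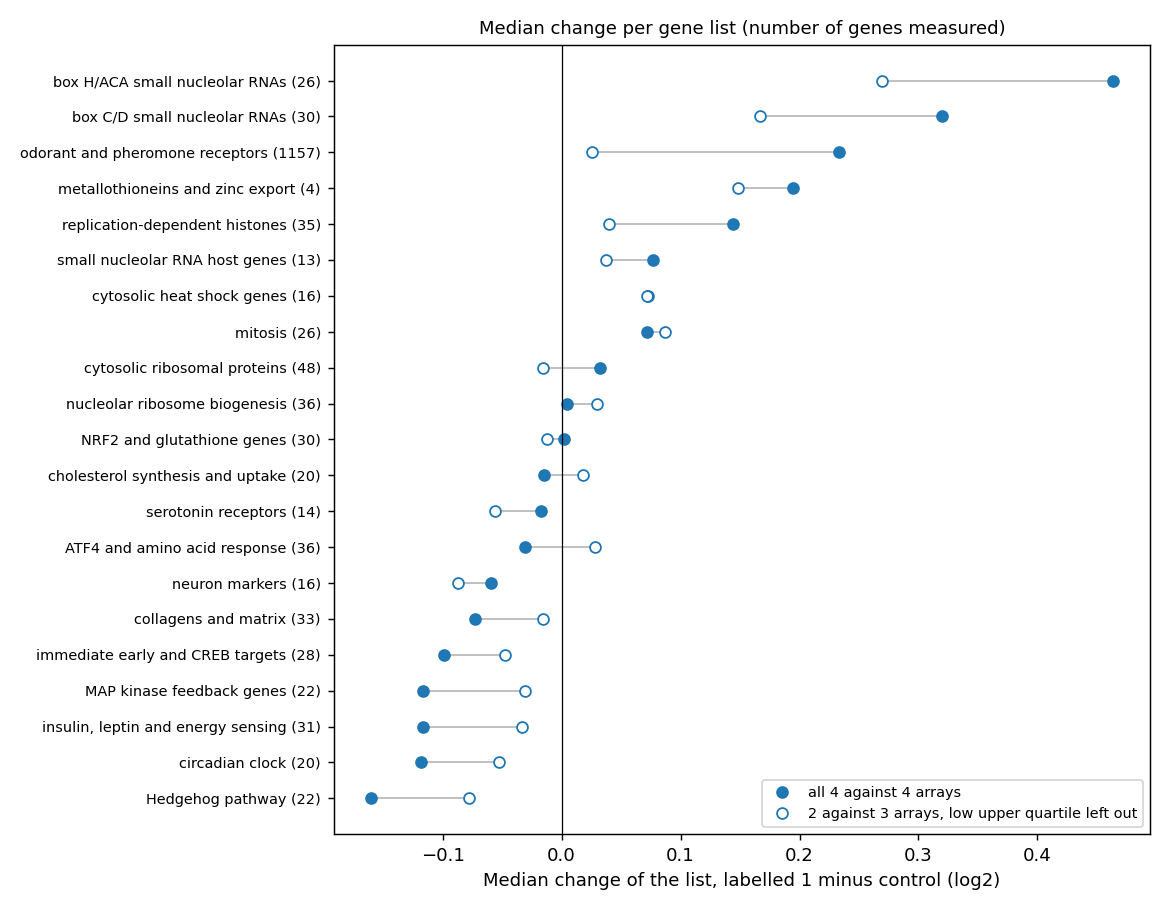
The median change of selected gene lists, out of 50, at labelled 1 against controls (log2, horizontal axis). Filled points use all 4 against 4 arrays, and open points leave out the arrays of upper quartile below 8.2. The number of genes measured is in brackets. The full list of 27 metallothionein and zinc transporter genes, with a median change of -0.03, is not drawn. The intestinal epithelium and the macrophage and microglia markers, with a median change of -0.16 each, are not drawn either. The receptor genes move from 0.23 to 0.03, the box H/ACA RNAs from 0.46 to 0.27 and the Hedgehog list from -0.16 to -0.08, and the metal binding and export genes from 0.19 to 0.15.

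Among the genes closest to the threshold but not called, the 9 lower ones that follow had all 4 labelled 1 arrays below all 4 controls. That held for 4.76% of all genes. The 9 were chosen by their small p in these same arrays, so the separation is a description. Pmel, a pigment cell amyloid protein gene, differed by -0.43 ± 0.08 and Lgr6, an R-spondin receptor gene, by -0.45 ± 0.09 (adjusted p = 0.172 each). Glul, the glutamine synthetase gene, was 9.97, 10.01, 9.92 and 9.97 in the controls and 9.59, 9.71, 9.58 and 9.67 at labelled 1 (-0.33 ± 0.07, adjusted p = 0.18). Itpkb, an inositol trisphosphate kinase gene, differed by -0.42 ± 0.09, the adhesion receptor gene Adgrg1 by -0.40 ± 0.09, the palmitoyltransferase gene Zdhhc4 by -0.29 ± 0.06 and the oestrogen receptor gene Esr2 by -0.39 ± 0.09 (adjusted p = 0.18 each). Dlx3 differed by -0.38 and Dpf1 by -0.37, also at 0.18. Labelled 1 replicate 2 was the nearest to the controls in 7 of these 9 genes. Outside the small RNAs, the higher genes of smallest p were sought among genes above background, without predicted genes, receptor genes and pseudogenes. They were Snrnp27, a splicing factor gene (0.27 ± 0.07), and Psma3, a proteasome subunit gene (0.35 ± 0.09), at the same adjusted p. Of genes at background level, the odorant receptor gene Olfr959 had the smallest adjusted p (0.0571), from 3.51, 3.46, 3.62 and 3.63 to 4.62, 3.94, 4.40 and 4.25, with replicates 1 and 3 highest. Stx19 (0.49 ± 0.09, adjusted p = 0.172) and Krtap21-1 (0.85 ± 0.18, adjusted p = 0.18) followed, both higher at labelled 1 and also at background level.

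The intervals describe how large a change between these arrays could have been missed. They rest on the spread pooled over all 20 arrays, and they bound no difference between cultures if the replicates are technical. Of the 18820 genes 12876 were above background, and the changes of genes near background are compressed. The median SE of a change was 0.100, and the median 95% interval reached 0.209 to either side. The interval lay within 1.5-fold in both directions for 17330 genes (92.1%) and within 2-fold for 18527 (98.44%). A change of at least 1.5-fold was measured for 217 genes, 125 of them receptor genes and 21 small nucleolar RNAs, and one of at least 2-fold for 40, all higher at labelled 1; none of the 40 was called. There were 1208 genes that passed the adjusted threshold with a change of at least 2-fold at labelled 100. Of these, 1203 (99.6%) had an interval within 2-fold at labelled 1. All 1208 (100%) differed between the serotonin groups in the direct test. That test reuses the labelled 100 arrays that chose the 1208 genes, so its count is a description. Car6, a secreted carbonic anhydrase gene and the largest increase at labelled 100 (mean 9.81), was 5.32, 5.40, 5.40 and 5.48 in the controls and 5.42, 5.59, 5.44 and 5.86 at labelled 1 (0.18 ± 0.10, adjusted p = 0.398). Fmod, the fibromodulin gene and the largest decrease at labelled 100 (mean 6.34), was 10.49, 10.43, 10.34 and 10.50 in the controls and 10.16, 10.31, 10.20 and 10.35 at labelled 1 (-0.18 ± 0.25, adjusted p = 0.734). The SD was 0.0728 in the controls, 0.0886 at labelled 1 and 0.838 at labelled 100, which shares in the error, and the adjusted p was 0.438 with the 8 arrays fitted alone. The stress gene Atf3 was 6.94, 7.09, 6.94 and 6.81 in the controls and 7.13, 7.20, 7.21 and 7.13 at labelled 1, without overlap (0.22 ± 0.11, adjusted p = 0.338), against a labelled 100 mean of 10.17. Among the other 17 genes of that set the changes ran from -0.25 (Penk) to 0.10 (Cth).

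**Figure D4:**
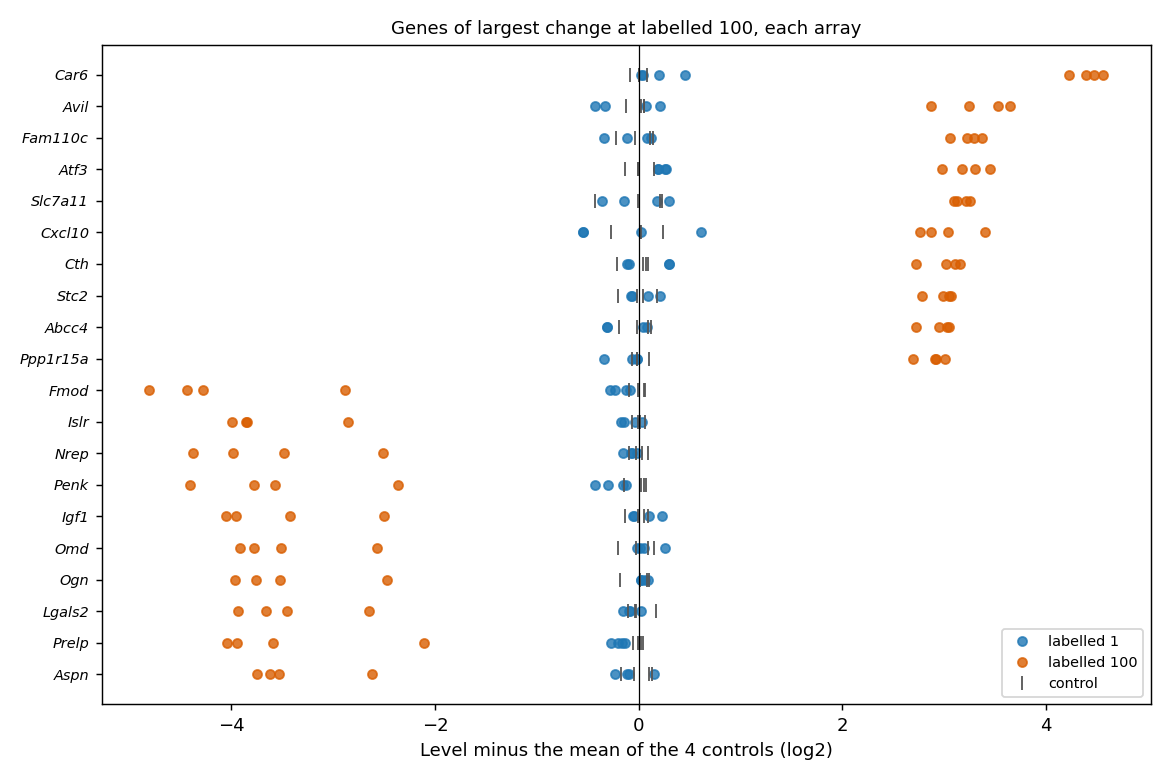
The 10 largest increases and 10 largest decreases at labelled 100 (chosen by that comparison, so its points are a description), each array as its level minus the mean of the 4 controls (log2). The labelled 1 arrays lie within 1 log2 unit of 0 for all 20 genes, and in 18 of them their range overlaps the control ticks (Atf3 and Prelp are the exceptions), and the labelled 100 arrays lie beyond 2 log2 units.

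Whole programmes that changed at labelled 100 stayed near 0 at labelled 1, in comparisons that share their controls. Of all genes, 20.3% rose and 19.3% fell at labelled 100, and 0.0106% were called at labelled 1. Of 36 ATF4 and amino acid response genes, 34 rose at labelled 100 with a median of 1.12; at labelled 1, 0 were called, all 36 intervals lay within 1.5-fold and the median was -0.03. Of 20 cholesterol synthesis and uptake genes 20 fell at labelled 100 (median -1.06), against 0 called and a median of -0.01 at labelled 1. Of 33 collagen and matrix genes 28 fell at labelled 100 (median -1.13), against 0 called and a median of -0.07, and Col6a3, a collagen chain gene, had the largest difference at -0.42 ± 0.13 (adjusted p = 0.203). NRF2 and glutathione genes had a median of 0.00, heat shock genes 0.07, mitosis genes 0.07 and replication-dependent histones 0.14 (0.04 without the low-quartile arrays), with 0 called in each list. Median centring raised all these medians by about 0.1, with -0.01 becoming 0.09 for cholesterol genes and -0.03 becoming 0.07 for the ATF4 list.

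The count of calls hung on labelled 1 replicate 2, the array nearest to the controls in many genes. Without it limma called 284 genes (1.51%), 121 higher (0.643%) and 163 lower (0.866%); without replicate 4 it called 4, and without any other single array of the 8 it called 1. The 3 arrays then left at labelled 1 include both of low upper quartile. Of the 121 higher genes 45 were receptor genes and 14 small nucleolar RNAs, and of the 163 lower genes 160 were above background. Of all 18820 genes, 1157 were receptor genes and 12876 were above background. Of all 284, 111 had an unadjusted p below 0.05 in the same direction without the low-quartile arrays. In that fit 1.31% of all genes were higher and 2.76% lower. For 135 all 4 labelled 1 arrays lay outside the controls, against 1.64% of all genes above and 4.76% below them. These counts reuse arrays that chose the 284 genes, so they are a description and no separate support. Among the named ones, Gas5, Snord47, Snora34 and Snord15a were called higher, and Lgr6, Ptch1, Tnfrsf22 and the gamma-tubulin genes Tubg1 and Tubg2 lower. Tubg1 was 11.73, 11.74, 11.68 and 11.66 in the controls and 11.30, 11.60, 11.35 and 11.44 at labelled 1, with replicate 2 the nearest (-0.28 ± 0.07 over all arrays, adjusted p = 0.18).

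Markers of other cell types gave no called gene. The mean over 13 intestinal epithelium markers was 4.90 in control replicate 3 and 4.23 to 4.29 in the other controls, against 4.18 to 4.26 at labelled 1. Lgr5 (-0.45 ± 0.12) and Lgals4 (-0.44 ± 0.13) had the smallest p of that list (adjusted p = 0.18 and 0.187). In control replicate 3 Lgr5 was 6.62, inside the range of the other controls (6.49 to 6.69). Lgals4 was 6.22 there, against 5.61 to 5.83 in the other controls. The largest decrease of the list, and of all genes, was that of Reg3g (-0.85), named here after its value was seen. Without control replicate 3, Snord22 was called (0.60, adjusted p = 0.00306) and Boc was not (-0.55, adjusted p = 0.0637). The mean over 12 macrophage and microglia markers was 4.48 to 4.75 in controls and 4.40 to 4.56 at labelled 1, that over 15 astrocyte and progenitor markers 7.62 to 7.74 and 7.57 to 7.68, and that over 9 fibroblast and mesenchyme markers 8.25 to 8.32 and 8.27 to 8.35. The astrocyte glutamate transporter gene Slc1a2 was 6.67, 6.71, 6.77 and 6.90 in the controls and 6.24, 6.65, 6.10 and 6.35 at labelled 1 (-0.42 ± 0.11, adjusted p = 0.18). Slc1a2 was the only 1 of the 15 astrocyte and progenitor markers at an unadjusted p below 0.05 (6.67% lower, against 10.5% of all genes). The median change of that list was -0.05, with 10 changes below 0 and 5 above. Gfap was among the latter, at 0.16 ± 0.13 (adjusted p = 0.556). In bulk RNA, fewer cells of a kind and less RNA per cell cannot be told apart.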

How the data were processed

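Total RNA of 2 hypothalamic lines was measured on 20 arrays. The deposited values are log2 levels that, per the submitters' processing notes, came from RMA, which corrects background, normalizes between arrays and summarises each probe set; its version and the genome build are not given in the sources used here. Of 35556 probe sets, 21218 had 1 gene symbol, 1881 several and 12457 none; the latter 2 kinds stayed out of the gene tests. Symbols were updated by Entrez ID (21185 probe sets) from the RefSeq table of GRCm38.p6. For 1386 genes with several probe sets the brightest was used, which left 18820 genes. The linear model held a mean for each of the 5 groups, so that all 20 arrays shared 1 estimate of the spread (15 residual degrees of freedom); it was run with limma (3.58.1, under R 4.3.3), followed by eBayes and Benjamini-Hochberg adjustment over all genes; adjusted p-values below 0.05 were called. The code was tested on simulated data. The number of arrays limits the precision.

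Named genes were Npy, called genes, the 10 smallest p-values in each direction among genes above background (predicted genes, receptor genes and pseudogenes left out), the 3 smallest outside that filter, the 10 largest changes in each direction at labelled 100, up to 4 genes of smallest p per described list, serotonin receptors above background, and 5 per direction called without the most influential array. The comparison, the lists and the rule were chosen with earlier results of these data known, and which lists are described was decided after their values were seen. Lists are described by counts and medians, with no test. Promoter sequences are from RefSeq (GRCm38.p6), matched by symbol for 4 of 4 genes searched. Alternatives changed the arrays fitted, blocks, scaling, filters, eBayes settings, array weights, probe set choice, fold threshold, dose label and arrays left out. Figures were drawn with matplotlib.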

Additional observations from a re-analysis of the deposited data

Results flagged for a closer look

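In 350 groups of 4 arrays (the control and labelled 1 values of the named genes, list means and array measures), 20 held an array that stood apart by Dixon's test at the 95% level. The groups share arrays and are not independent. Chance gives about 1 in 20 groups such an array, and the count is close to that rate. Most of these arrays were control replicate 1, whose upper quartile of 8.09 stood apart from 8.24 to 8.26 in the other controls and whose distance to the mean of its group's other arrays (root mean square over genes), 0.236, stood apart from 0.159 to 0.169. Its list means were the lowest of the controls for the circadian clock (7.77), cAMP and calcium signalling (7.48), ATF4 (9.03), NRF2 (9.38), cholesterol (10.19) and heat shock (9.72) lists. Among genes it was the lowest for the transsulfuration enzyme gene Cth (7.34), the Npy receptor gene Npy1r (7.24), the phosphodiesterase gene Pde4a (7.70), the transporter gene Abcc1 (9.76) and the chaperone partner gene Chordc1 (7.95). Control replicate 3 stood apart by its high mean of intestinal markers, 4.90, and by low values of Ptch1 (9.47) and of the perlecan gene Hspg2 (9.79). Control replicate 4 was low for Htr2a (4.97). Labelled 1 replicate 3 was low for the stress phosphatase subunit gene Ppp1r15a (7.55) and for Htr5b (4.28), and high for the mitochondrial chaperonin gene Hspe1 (11.27).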

How the results depend on the processing

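Of the 2 called genes, 0 were called in the fit of the 12 E46 arrays or the 8 arrays alone, with the row letter as a covariate, against a 1.5-fold threshold, and in the arrays at position number 5 or 7 alone; 1 gene was called at position number 9 alone (Reg3g), with a block for the position number, with median centring, and without control replicate 3 (Snord22 in each), and 1 without the low-quartile arrays (Slc30a1). At an unadjusted p below 0.05 the fits with 0 calls had 2746, 2097, 3416, 12, 453 and 3656 genes, in the order given. Leaving out each array in turn gave 1 to 284 calls. With the replicate block 1 gene was called (Snord22). The deviations of same-numbered arrays correlated at 0.37, 0.34, -0.22 and -0.06, so the numbers were not taken to pair the samples, and only replicates 1 and 2 at labelled 1 correlated best with their own number. With quantile normalization, trended and robust eBayes, array weights, the mean of a gene's probe sets, dim genes left out or the upper quartile as a covariate 2 genes were called in each, Snord22 among them, with Olfr959 in place of Boc in 3 of these and Slc30a1 in 1. Using the doses of the description, the arrays titled 100 take the place of those titled 1 and 7451 genes were called; the change then had the opposite sign for Avil (3.32), Fam110c (3.24), Slc7a11 (3.17), Cxcl10 (3.02), Abcc4 (2.94), Ppp1r15a (2.88), Igf1 (-3.48), Omd (-3.44), Ogn (-3.43), Cry2 (0.70), Etv4 (0.74), Slc6a9 (1.43), Mars1 (0.89), Slc38a2 (0.28), Aldh18a1 (1.11), Abcc1 (0.76), Tkt (0.55), Cyp51 (-1.0), Aurka (-0.38) and Tnfrsf22 (0.43), because other arrays are compared. The change of Npy ran from -0.40 to 0.39 over all settings and was called in none. The direct comparison of the serotonin groups gave 7037 to 8252 calls. Leaving aside the dose label and single position numbers, 52 of 3256 values of 143 named genes turned sign, none of them called; 32 genes gained a call in some setting, and 84 of 1099 list medians moved by more than the SD between replicates. Over 35556 probe sets 1 was called, and 0 of the 14338 without a single gene symbol (2253 at an unadjusted p below 0.05). Genes near background have compressed changes, and with 4 arrays a group the median gene's 95% interval reached 0.209 to either side of its change.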
